A study of Arabidopsis thaliana with 12 samples.

Results

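Small RNA abundance in nrpd1 and in nrpe1 seedlings was compared over 4213 regions of 500 bp, the regions that appeared in the tables of both repeats, out of 6125 that appeared in either. NRPD1 is the largest subunit of RNA polymerase IV (Pol IV) and NRPE1 the largest subunit of RNA polymerase V (Pol V). The members were 4 libraries, repeat 1 and repeat 2 of nrpd1-/- and of nrpe1-/-, and each repeat was read within its own table. Wild type, with no mutation named, served as the reference. The whole study held 12 small RNA libraries from whole Arabidopsis thaliana seedlings, with 2 repeats of 6 genotypes. The plants were 10 days old and grew on MS plates at 22 °C under 16 h of light. The arid2/3/4, epcr1/2 and hda6 mutants entered only the estimate of spread and a few reference values. No source used here names the alleles behind nrpd1-/- and nrpe1-/-, and small RNA regions cannot show whether either gene was intact.

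In plants, RNA-directed DNA methylation uses a pair of plant-specific polymerases. Pol IV transcribes transposons and other repeats into short precursors, which RDR2 makes double-stranded and DCL3 cuts into small interfering RNAs (siRNAs) that are loaded into ARGONAUTE4-type proteins. Pol V makes scaffold transcripts at the target, to which these siRNAs pair, and recruits the DNA methyltransferase DRM2. Loss of Pol IV therefore removes the siRNA at its source. Loss of Pol V acts downstream, and is known to reduce siRNA at some loci and not at others. The comparison asks at which regions loss of Pol V leaves as little small RNA as loss of Pol IV.

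A few stretches of the regions described below show the kinds of sequence at issue. Each is 300 bases of the plus strand of the RefSeq TAIR10.1 assembly, whose chromosome lengths are those of the build used for the scores. Capitals mark bases inside 24-base words that occur more than once in that assembly. The first lies upstream of the LUC7-related gene AT5G17440, where nrpe1 scored as low as nrpd1, and it held no repeated word. The second is intergenic, also near 0 in nrpe1, and 46 of its bases were in repeated words. The third had the highest wild-type score of the regions that lost most of their small RNA in nrpe1. The last lies next to the position set for the chromosome 4 centromere and scored above wild type in nrpe1 in both repeats.
chr5:5749101-5749400, residual in nrpe1: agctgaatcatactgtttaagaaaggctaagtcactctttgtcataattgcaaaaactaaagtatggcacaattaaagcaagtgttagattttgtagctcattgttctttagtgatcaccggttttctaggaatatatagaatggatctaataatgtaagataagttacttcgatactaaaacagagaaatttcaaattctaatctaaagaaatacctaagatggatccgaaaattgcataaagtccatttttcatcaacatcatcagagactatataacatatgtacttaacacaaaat
chr1:22890601-22890900, residual in nrpe1: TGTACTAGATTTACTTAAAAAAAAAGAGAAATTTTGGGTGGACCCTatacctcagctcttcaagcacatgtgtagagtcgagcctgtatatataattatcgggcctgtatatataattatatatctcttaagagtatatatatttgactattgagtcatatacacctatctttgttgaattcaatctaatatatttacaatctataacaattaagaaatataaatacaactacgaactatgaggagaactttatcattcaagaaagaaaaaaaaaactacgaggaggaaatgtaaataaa
chr3:7922101-7922400, reduced in nrpe1: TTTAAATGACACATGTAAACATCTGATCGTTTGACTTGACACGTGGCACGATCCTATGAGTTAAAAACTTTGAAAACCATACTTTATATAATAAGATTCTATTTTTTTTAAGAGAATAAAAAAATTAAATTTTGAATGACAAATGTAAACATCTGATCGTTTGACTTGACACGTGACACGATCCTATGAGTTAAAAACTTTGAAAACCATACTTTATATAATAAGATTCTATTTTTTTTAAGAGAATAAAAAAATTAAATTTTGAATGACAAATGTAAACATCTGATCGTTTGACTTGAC
chr4:3971101-3971400, kept in nrpe1: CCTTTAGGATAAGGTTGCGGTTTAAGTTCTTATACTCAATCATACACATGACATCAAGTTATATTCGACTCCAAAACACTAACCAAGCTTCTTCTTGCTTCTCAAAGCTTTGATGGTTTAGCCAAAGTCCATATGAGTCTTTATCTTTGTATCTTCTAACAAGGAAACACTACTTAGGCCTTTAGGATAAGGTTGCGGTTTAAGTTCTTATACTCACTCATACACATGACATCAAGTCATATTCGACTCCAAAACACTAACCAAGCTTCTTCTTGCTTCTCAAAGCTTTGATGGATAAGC
In both stretches printed wholly in capitals every base was in a repeated word, and the median word occurred 4 times in the one on chromosome 3 and 81 times in the one on chromosome 4. The 500 bp region on chromosome 4 is a tandem array, since 96.6% of its bases with a partner equalled the base 178 positions further on. The same measure peaked at 76.2%, at 130 positions, in the region on chromosome 3, and at 37.7% and 36.1% in the residual regions on chromosomes 5 and 1.

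Small RNA was close to absent in nrpd1 and mostly present in nrpe1. Scores are the authors' whole-number abundances per region, whose scaling no source used here describes. The median nrpd1 score was 2 in repeat 1 and 0 in repeat 2, against 173 and 116 in nrpe1 and 209 and 165 in wild type. The lowest wild-type score was 95 in repeat 1 and 98 in repeat 2, and no nrpd1 score was above 19.7% of wild type in repeat 1 or 10.4% in repeat 2. Every region in the tables was thus low in nrpd1, and how regions were chosen for the tables is not stated. Summed over regions, nrpd1 held 1.32% of the wild-type score in repeat 1 and 0.342% in repeat 2, while nrpe1 held 78.9% and 66.2%. Fewer producing cells and less small RNA per cell cannot be told apart in whole seedlings. With limma on log2(score + 89), adjusted over all regions, nrpe1 was higher than nrpd1 at 3704 regions, 87.9% of those tested, with a median difference of 1.36. The percentage called higher in nrpd1 was 0, and no region was higher in nrpd1 at an unadjusted p below 0.05 either. Since every listed region was low in nrpd1 and 89 was added to each score, the test had little room to call this direction. Regions listed with low nrpd1 and high wild-type scores also favour calls higher in nrpe1, so the 87.9% describes the listed regions only. Fitted differences were negative at 10 regions. The remaining 509 regions, 12.1%, were not called. That number depended on the added constant (pseudocount) of 89: it was 169 with one 10 times smaller and 1105 with one 10 times larger.

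**Figure D1:**
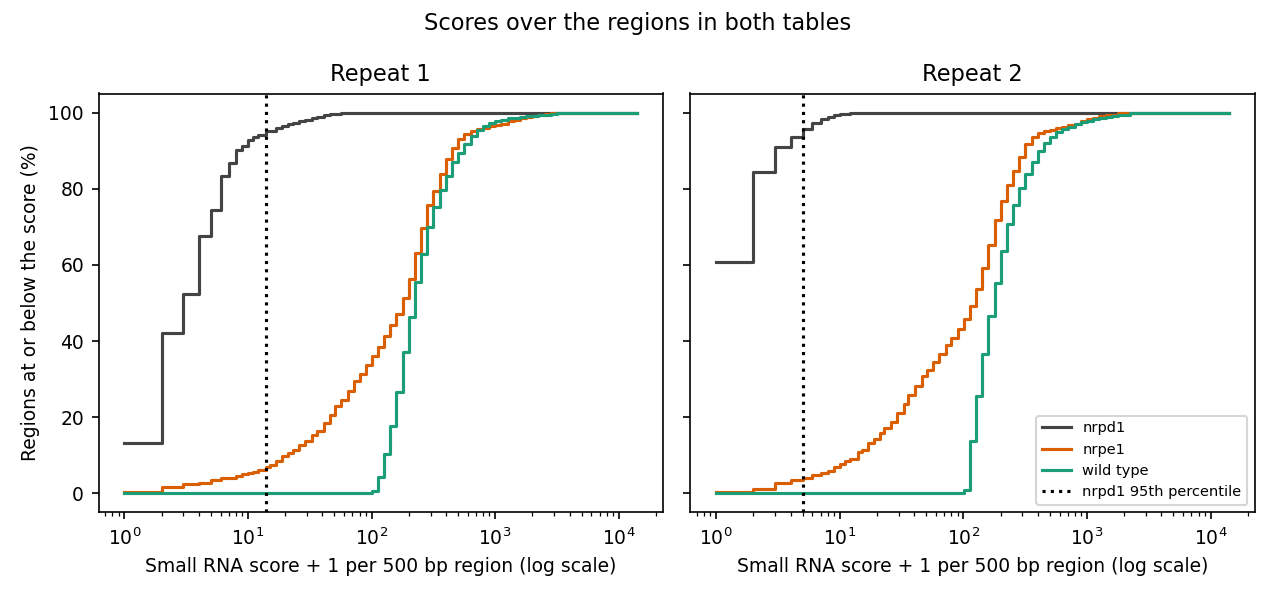
Cumulative share of the 4213 regions (y axis, %) at or below each small RNA score (x axis, score + 1, log scale), with 1 panel per repeat and 1 line per genotype. The nrpd1 line ends near 79 in repeat 1 and 18 in repeat 2, while the nrpe1 line starts among the nrpd1 scores and meets the wild-type line above its median; the dotted line is the 95th percentile of nrpd1, 13 and 4.

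The residual level of nrpd1 was set as the 95th percentile of its scores in each repeat, 13 in repeat 1 and 4 in repeat 2. By this ceiling nrpe1 was at the residual level in both repeats at 165 regions, 3.92% of all. Repeat 1 alone gave 293 such regions and repeat 2 alone 166, so that the shared regions were 56.3% of the first list and 99.4% of the second. After quantile normalization of the libraries other than nrpd1, which lifts the lowest nrpe1 scores by its construction, no region was at the residual level and 181 were at or under 0.2 of wild type. The ceilings were not sharp edges: 12 regions had an nrpe1 score of exactly 13 and 19 had 14 in repeat 1, and 19 had exactly 4 and 37 had 5 in repeat 2. A wider class, nrpe1 at or under 0.2 of wild type in both repeats, held 969 regions, 23% of all; 804 of these lay above the residual level, and limma called 463 of the 804 higher in nrpe1. The 95% interval of the nrpe1 minus nrpd1 difference lay under 1 on the log2(score + 89) scale at 1255 regions, 29.8%. That last count depended on the pseudocount too, and was 170 with one 10 times smaller. The strictest reading, nrpe1 no higher than the nrpd1 score of the same region in both repeats, was met at 8 regions, 0.19%.

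The regions at the residual level lay mostly on the chromosome arms and mostly held unique sequence. On the arms, taken as more than 3 Mb from a set centromere position, nrpe1 reached the residual level at 129 of 1237 regions, or 10.4%. In the pericentromere it did so at 36 of 2976 regions, or 1.21%. The arms held 78.2% of the residual regions but 29.4% of all regions. The 0.2 ceiling was met at 54.7% of arm regions and 9.81% of pericentromeric regions. The share of the small RNA kept in nrpe1 was computed as (nrpe1 − nrpd1) / (wild type − nrpd1), so that 0% is the nrpd1 level and 100% the wild-type level. Its median on the arms was 14.7% ± 3.27 (SD, n = 2 repeats), from 17.0% in repeat 1 and 12.4% in repeat 2. Its median in the pericentromere was 116% ± 17.3 (SD, n = 2), from 128% and 104%. The pericentromeric value was the higher one in both repeats; both medians come from the same libraries, and their difference was not tested. After quantile normalization of the libraries other than nrpd1 they were 45.0% and 155%. The same pattern held on each chromosome, where residual regions made up 7.71% of arm regions on chromosome 1, 10.4% on chromosome 2, 13.1% on chromosome 3, 8.9% on chromosome 4 and 12.5% on chromosome 5, against 0.82% to 2.41% in the pericentromeres.

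The share kept in nrpe1 was lower at each step away from the centromere position. Within 1 Mb, none of 1745 regions was at the residual level, and the median kept was 139% in repeat 1 and 109% in repeat 2. Between 1 and 2 Mb, 9 of 700 regions were residual and the medians were 102% and 86.0%. Between 2 and 3 Mb, 27 of 531 were residual and the medians were 43.5% and 37.0%. From 3 to 5 Mb the medians were 20.5% and 14.9%, and from 10 to 20 Mb they were 14.6% and 11.0%. Residual regions made up 14% of the 242 regions in that last interval, the highest share of any interval, and so stayed a minority at every distance.

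**Figure D2:**
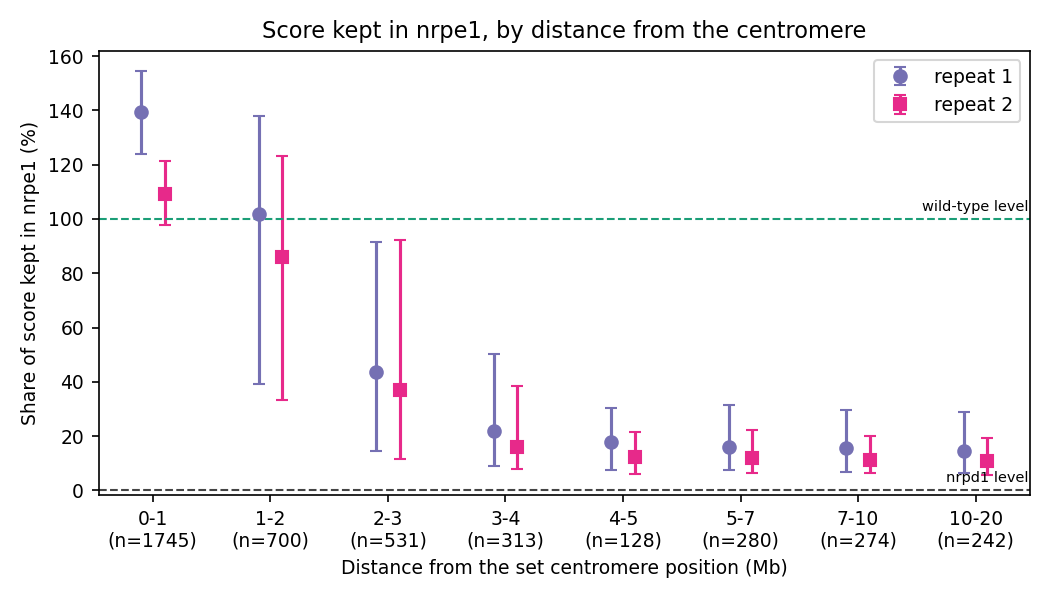
Share of the small RNA score kept in nrpe1 (y axis, %, 0 at the nrpd1 level and 100 at the wild-type level) by distance from the set centromere position (x axis, Mb), as the median with bars from the lower to the upper quartile over regions, in each repeat. Medians pass from 139% and 109% within 1 Mb to 14.6% and 11.0% beyond 10 Mb, and the quartiles are widest between 1 and 3 Mb.

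Copy number separated regions further, within the arms and within the pericentromere. A region was assigned the median number of times that its 24-base words occur in the genome. With a median of 1 copy, 113 of 435 arm regions (26%) and 32 of 409 pericentromeric regions (7.82%) were at the residual level. Medians above 1 and up to 5 copies gave 15 of 341 arm regions and 4 of 582 pericentromeric regions, medians above 5 and up to 10 copies gave 1 region in all, and above 10 copies none of 1854 regions was residual. Regions with a median of 1 copy made up 87.9% of the residual list and 20% of all regions. The share kept on the arms was 7.10% and 6.25% in the 2 repeats at 1 copy and 29.2% and 18.5% above 10 copies, and in the pericentromere it was 33.1% and 29.3% at 1 copy and 134% and 109% above 10 copies. Across regions, Spearman's rho of the share kept with the copy number was 0.53 and 0.47 on the arms and 0.31 and 0.33 in the pericentromere; regions share libraries and sequence, and these values are descriptions. A read from a repeated sequence can be placed at several copies, and how the authors placed such reads is not stated, so the scores of repeated regions are not independent of one another. In the 301 regions where at least 80% of words occur once, the contrast between arms and pericentromere remained: 62 of 160 arm regions (38.8%) and 23 of 141 pericentromeric regions (16.3%) were residual, with 3.61% and 3.86% kept on the arms and 59.9% and 53.2% in the pericentromere.

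**Figure D3:**
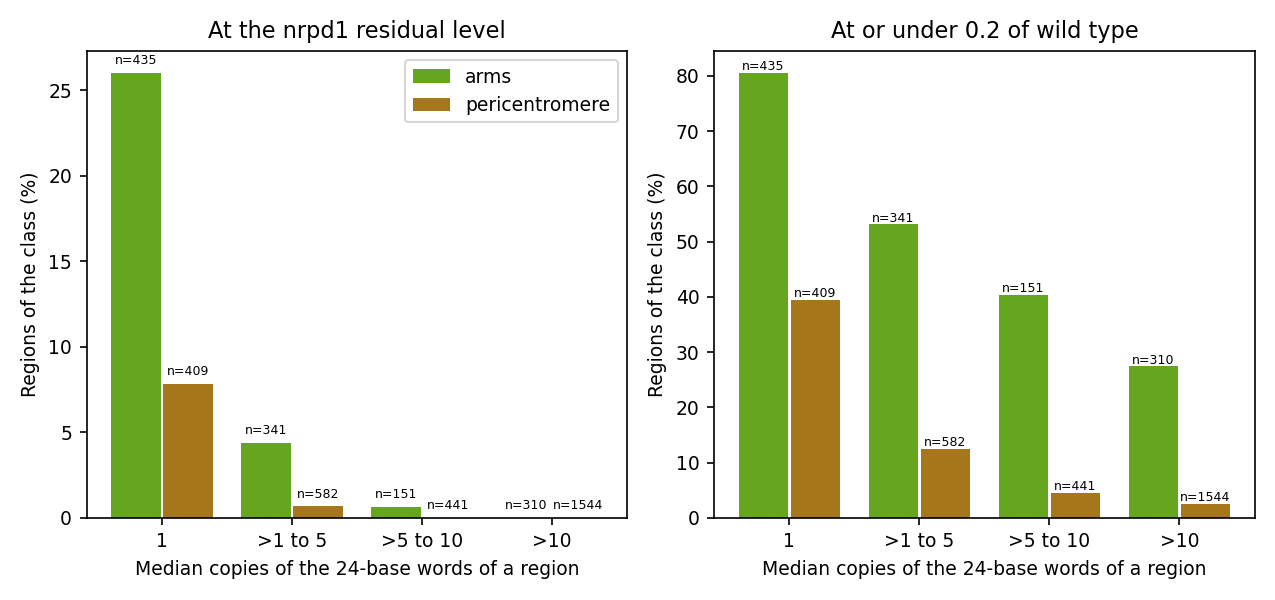
Percentage of regions of each class (y axes, %) at the nrpd1 residual level (left) and at or under 0.2 of wild type (right) in nrpe1, by the median copies of a region's 24-base words (x axis), for arms and pericentromere, with the number of regions above each bar. Both percentages are highest at 1 copy on the arms, 26% and 80.5%, and no region above 10 copies is at the residual level.

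Tandem arrays held no region under either ceiling. Regions in which at least 80% of bases equalled the base at one fixed lag between 20 and 250 positions numbered 323 in the pericentromere and 9 on the arms; this class was chosen after the values were seen. None of them was residual and none was at or under 0.2 of wild type. Among the 2653 other pericentromeric regions 1.36% were residual and 11% were at or under 0.2 of wild type, so the absence of residual regions is close to that background. Their median share kept in the pericentromere was 156% and 111%, against 124% and 101% for the others.

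Genes and their upstream sequence were more often at the residual level than annotated pseudogenes, a class that in this annotation takes in many transposon genes. Residual regions numbered 44 of 341 in bodies of protein-coding genes (12.9%), 61 of 508 within 1 kb upstream of one (12%), 2 of 647 in pseudogenes (0.309%) and 58 of the 2717 remaining regions (2.13%). On the arms alone the percentages were 17.8%, 12.5%, 2.33% and 7.89%. Within gene bodies, 21 of 93 regions on untranslated exons were residual and 79 were at or under 0.2 of wild type, with 7.02% and 6.24% kept. Regions on coding exons kept 72.5% and 73.6%, and 19 of 215 were residual. Coding exons with a median of 1 copy kept 8.54% and 7.82%, and coding exons on the arms kept 10.2% and 9.83%. Of the single-copy coding exons 66.3% were on the arms, against 42.3% of all coding exons. The pseudogene regions had a median of 14 copies, 13.3% of them were on the arms, and they kept 119% and 108%. The part of copy number and of location in these differences was not tested. Upstream regions in the pericentromere kept 15.8% and 15.4%, a little above the 13.7% and 10.7% of those on the arms and far under the 128% and 104% of the pericentromere as a whole. They had a median of 2 copies, against 11 in the pericentromere as a whole. Of these 125 upstream regions 17 lay within 1 Mb of a centromere position, against 1745 of all 2976 pericentromeric regions. The part of copy number and distance here was not tested either.

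Most residual regions stood alone. Of the 165, 145 (87.9%) had no adjoining listed region, against 37.7% of all regions and 58.9% of arm regions. Among arm regions with a median of 1 copy, which are more like them, 341 of 435 (78.4%) were isolated too, so the trait is not particular to residual regions. The 165 fell into 162 sequence families, so few were copies of one another. Isolated regions on the arms were residual in 114 of 729 cases, members of runs of 2 in 15 of 316, and members of runs of 3 or more in 0 of 192. In the pericentromere the counts were 31 of 858, 4 of 606 and 1 of 1512. Where a residual region adjoined a listed region that was not residual, these 14 neighbours kept a median of 8.86% and at most 49.3%. The median GC content of the residual regions was 31%, against 27.4% over all arm regions and 34.4% over all regions. On the arms, the residual share was 6.34% in the lowest GC quartile, 14.5% in the second, 27.1% in the third and 5.32% in the highest, so it did not follow GC in a single direction. As a reference, the median level at the residual regions in percent of wild type was 48.6% and 80.6% in arid2/3/4, 43.5% and 65.8% in epcr1/2, and 47.5% and 58.6% in hda6. Over all regions the same values were 87.7% and 119%, 127% and 195%, and 66.3% and 81.1%. Over all arm regions they were 58.9% and 81.1%, 64.5% and 91.9%, and 55.6% and 67.9%. Over arm regions with a median of 1 copy they were 57.5% and 83.5%, 52.4% and 80.7%, and 52.0% and 68.2%. The residual values were the lowest, but closer to both arm sets than to all regions. Whether they differ from those of other single-copy arm regions was not tested. The nrpe1 level at the residual regions was fixed by their choice and is no comparison with these.

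Named examples at the residual level, the highest in wild type with 1 taken per family and run, scored 5 or less in both mutants. At chr5:5749001-5749500, 223 bp upstream of AT5G17440, wild type scored 337 and 282, nrpe1 1 and 1, and nrpd1 1 and 0. At chr3:16770501-16771000, in a coding exon of AT3G45680, a major facilitator superfamily transporter gene, wild type scored 421 and 207, nrpe1 2 and 1, and nrpd1 0 and 0. At chr4:14582001-14582500, on an untranslated exon of AT4G29780, annotated as a nuclease gene, wild type scored 370 and 282, nrpe1 5 and 1, and nrpd1 1 and 0. In all 3 regions nrpe1 and nrpd1 overlapped or lay within 4 score units of each other, and wild type lay far above both. The fitted nrpe1 minus nrpd1 difference at the last of these was 0.04 ± 0.14 (SE; limma adjusted p = 0.801, 95% interval −0.24 to 0.32). Since both mutants sit far below the pseudocount, an interval of this width says that they were not told apart, not that they are equal.

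Other examples lay near genes of varied function. At chr5:1518501-1519000, 705 bp upstream of the TFIIS-family gene AT5G05140, wild type scored 350 and 263, nrpe1 2 and 2, and nrpd1 2 and 0. At chr3:9595501-9596000, on an untranslated exon of the cytochrome P450 gene CYP71B3, the scores were 331 and 246, then 1 and 1, then 3 and 0, in the same order. At chr1:22890501-22891000, 1464 bp from AT1G61920, they were 353 and 164, then 0 and 1, then 0 and 0. The other named residual regions, near AT1G74800, AT3G55672, AT1G33870 and AT3G28420, had nrpe1 scores of 1 to 4. At the region in AT1G33870 (chr1:12303001-12303500), nrpe1 scored 3 and 3, wild type 317 and 212, and hda6 338 and 309, so hda6 was above wild type in both repeats.

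In 8 regions nrpe1 was no higher than nrpd1 in either repeat, and all had a median of 1 copy. At chr3:18268501-18269000, 230 bp upstream of the extensin-like gene AT3G49270, wild type scored 275 and 124, nrpe1 1 and 0, and nrpd1 3 and 0. At chr1:17335501-17336000, on an untranslated exon of 3BETAHSD/D1, a sterol biosynthesis gene, nrpe1 scored 0 and 0, nrpd1 1 and 0, and wild type 207 and 160. At chr5:21796001-21796500, on an untranslated exon of GRF7, which encodes a growth-regulating transcription factor, both mutants scored 1 and 0 and wild type 102 and 110. At chr4:1488501-1489000, in an intron of AT4G03380, both mutants scored 0 in both repeats, and wild type 128 and 101. The other 4 regions lay in AT1G31163 and near AT1G64330, AT5G07855 and AT4G05071, with nrpe1 scores of 0 to 2. These counts of a few score units are at the limit of what whole-number scores resolve.

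A second kind of region lost most of its small RNA in nrpe1 but stayed above nrpd1. The named ones had the highest wild-type scores of the 804 regions under 0.2 and above the residual level, 1 per family and run. At chr3:7922001-7922500, 2294 bp from TIC, a circadian clock gene, wild type scored 11904 and 7428, nrpe1 921 and 511, and nrpd1 36 and 16. The difference from nrpd1 was 2.76 ± 0.35 (SE; limma adjusted p = 1.24e-14), and 7.07% ± 0.551 (SD, n = 2) was kept. At chr3:17033001-17033500, 165 bp from AT3G46345, wild type scored 5703 and 3650, nrpe1 507 and 295, and nrpd1 15 and 8. At chr5:12091501-12092000, 2795 bp from AT5G32470, the scores were 5736 and 3668, then 560 and 320, then 15 and 8. These last 2 regions had near-equal scores in every library shown; whether they were given the same reads was not tested. At chr1:21260001-21260500, 27 bp upstream of the pectin lyase-like gene AT1G56710, wild type scored 3174 and 2100, nrpe1 248 and 151, and nrpd1 9 and 4. A region on the long non-coding RNA gene AT3G03165 (chr3:5380001-5380500) had 3234 and 2120, then 246 and 141, then 11 and 4. The regions at AT1G56710 and AT3G03165 likewise had near-equal scores in every library shown, and shared reads were not tested there either. These examples may therefore not be independent of one another. The 5 regions kept 6.88% to 9.03%, and nrpe1 exceeded nrpd1 in every repeat.

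At the other end, the 10 largest differences between the mutants, with 1 region taken per family and run, were all within 1 Mb of a centromere position. At chr1:15085501-15086000, on a coding exon of AT1G40104, an uncharacterized gene, wild type scored 2427 and 2037, nrpe1 3532 and 2151, and nrpd1 41 and 8. The difference was 4.66 ± 0.32 (SE; limma adjusted p = 4.38e-46). At chr4:3971001-3971500, the tandem array printed above, wild type scored 971 and 1086, nrpe1 1556 and 1146, and nrpd1 21 and 6, a difference of 3.80 ± 0.27 (SE; limma adjusted p = 1.11e-43). Of the 10 such regions 9 had a median of 7 to 59 copies, but chr2:2604501-2605000, on a coding exon of AT2G06555, had a median of 1 copy. There wild type scored 902 and 637, nrpe1 1270 and 843, and nrpd1 12 and 2, and arid2/3/4 scored 290 and 327. In all 10 regions nrpe1 was above wild type in both repeats. Over all regions nrpe1 was above wild type in both repeats at 1604, of which 1580 were pericentromeric.

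**Figure D4:**
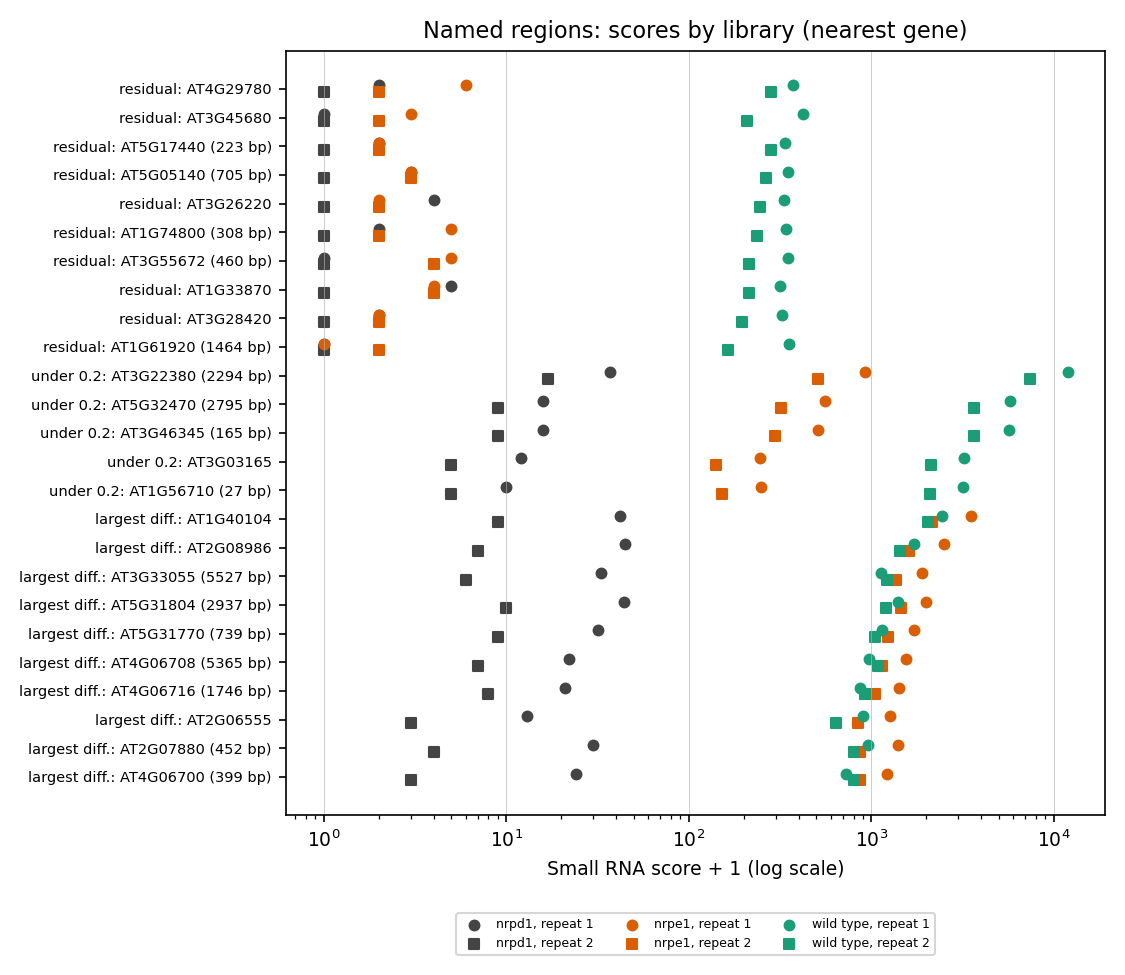
Small RNA score + 1 (x axis, log scale) of nrpd1, nrpe1 and wild type in each repeat at 25 named regions, 1 per row, labelled by nearest gene and, where the region does not overlap it, the distance in bp. In the 10 residual regions nrpe1 lies among or just above the nrpd1 points, at 5 or less, in the 5 regions under 0.2 of wild type it lies between nrpd1 and wild type, and in the 10 regions of largest difference it lies at or above wild type.

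The small RNA left in nrpd1 was only in part the same in both repeats. Its score was above 0 in both repeats at 1561 regions (37.1%) and 0 in both at 462 (11%). It was above 0 in both in 43.3% of pericentromeric and 22.1% of arm regions. Spearman's rho between the repeats over regions was 0.42 for nrpd1 and 0.98 for nrpe1. In nrpd1, 13.3% of regions scored 0 in repeat 1 and 60.6% in repeat 2, so many of its ranks were tied. At 106 regions nrpd1 was above the ceiling in both repeats. The share of all regions at or under it was 95.1% in repeat 1 and 95.7% in repeat 2. Of the 106, 92 were pericentromeric (86.8%), as were 2976 of all 4213 regions. The highest, at chr5:12814501-12815000, scored 79 and 15 in nrpd1, 471 and 377 in nrpe1 and 589 and 618 in wild type. The next named one, at chr5:12856501-12857000, scored 79 and 5, then 357 and 213, then 450 and 345 in the same order. Of the 10 named regions with the highest mean nrpd1 score, with 1 region taken per family and run, 9 lay within 2 Mb of a centromere position. These 9 kept 68.0% to 131% in nrpe1. The exception was the region near TIC, where nrpd1 scored 36 and 16 and 7.07% was kept. In each of the 10, nrpe1 was above nrpd1 in both repeats.

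Of the loci known for RNA-directed DNA methylation that were looked up, FWA, SDC, ROS1, EPF2 and FLC had no listed region within 2 kb, and MEA, an imprinted Polycomb gene, had 2. At chr1:550501-551000 wild type scored 251 and 215, nrpe1 69 and 41, and nrpd1 6 and 0, a difference of 0.64 ± 0.16 (SE; limma adjusted p = 6.66e-05). At chr1:550001-550500 wild type scored 129 and 114, nrpe1 30 and 21, and nrpd1 4 and 0 (difference 0.33 ± 0.11, SE; limma adjusted p = 0.00299). The regions kept 22.4% and 19.6%, above the arm median of 14.7%, and neither was residual.

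A set of 19 regions overlapped 17 genes annotated as MIRNA, with mature miRNAs of 8 seeds, and their share kept ran from 1.75% to 152%. Limma called 10 of the 19 higher in nrpe1, or 52.6%, against 87.9% of all regions. The mature sequences of the MIRNA genes compared here are given below as RefSeq TAIR10.1 annotates them, with the seed (bases 2 to 8) in capitals. A small RNA score of a region does not show that this miRNA was counted. The mature sequences of MIR8167a, MIR5645b and MIR5645e do not lie wholly inside a listed region.
MIR8167a to MIR8167f: aGAUGUGGagaucguggggaug
MIR5645b, MIR5645d and MIR5645e: aUUUGAGUcaugucguuaag
MIR5643a and MIR5643b: aGGCUUUUaagaucugguugc
MIR2933a and MIR2933b: gAAAUCGGagaggaaauucgcc
The 7 regions with MIR8167 copies had 2 to 17 in nrpe1, 0 to 2 in nrpd1 and 114 to 337 in wild type, and none was called. In each of the 7, nrpe1 was above nrpd1 in both repeats. These mutant scores lay far below the pseudocount, so the missing calls do not show that the mutants were equal there. With a pseudocount 10 times smaller, the difference at MIR8167f (chr5:24002001-24002500) became 0.966 and was called. At chr3:17469501-17470000 it became 0.391 and stayed uncalled. At MIR8167d (chr5:7057001-7057500) wild type scored 337 and 222, nrpe1 12 and 8, and nrpd1 1 and 0 (limma adjusted p = 0.412). The part of MIR8167b at chr3:17469501-17470000, which also overlaps an untranslated exon of AT3G47410, scored 201 and 133, then 5 and 2, then 1 and 0, and was the only residual region of the 19. MIR8167 copies hold the same mature sequence, so reads from one can be placed at the others. MIR5645 regions were intermediate. At MIR5645d (chr1:16116501-16117000) wild type scored 284 and 179, nrpe1 86 and 45, and nrpd1 1 and 0 (difference 0.77 ± 0.16, SE; limma adjusted p = 2.78e-06). The MIR5643 and MIR2933 regions were at the other end. At MIR5643a (chr5:11667501-11668000) wild type scored 172 and 202, nrpe1 290 and 218, and nrpd1 4 and 2. At MIR2933b (chr3:17402501-17403000) wild type scored 277 and 206, nrpe1 314 and 196, and nrpd1 2 and 0. MIR2933a lay across a region that kept 152% and a neighbour that kept 57.4%.

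**Figure D5:**
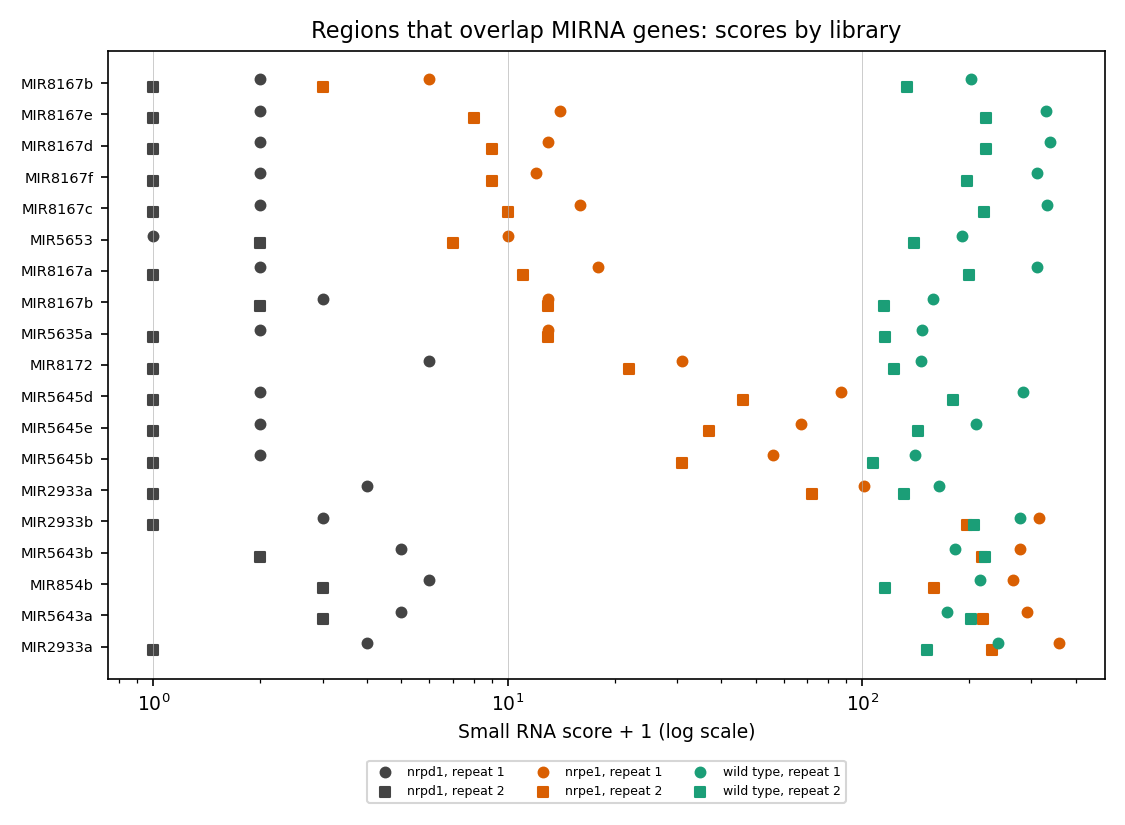
Small RNA score + 1 (x axis, log scale) of nrpd1, nrpe1 and wild type in each repeat at the 19 regions that overlap MIRNA genes, 1 per row, ordered by the share kept in nrpe1. The nrpe1 points run from 2 to 359 and cross from the nrpd1 side at MIR8167 to the wild-type side at MIR5643 and MIR2933.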

How the data were processed

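Small RNA libraries of 12 samples (6 genotypes, 2 repeats) were grouped by genotype and repeat as the sample titles give them. Each repeat has its own deposited table, with a score for every genotype in each 500 bp region, taken here as the authors' normalized abundance rounded to whole numbers. No source used here states its scaling, and total depth is unknown. Reads were mapped with Bowtie 0.12.2 to TAIR10, per the submitters' processing notes. Read sizes, placement of reads with several matches and the choice of regions are not stated there. Values were compared only within a table.

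Regions are numbered from 1 here. nrpe1 was tested against nrpd1 with limma 3.58.1 (R 4.3.3) on log2(score + 89), with genotype and repeat as terms over 12 libraries, a trended spread, Benjamini-Hochberg adjustment over 4213 regions and a threshold of 0.05. Prior degrees of freedom came out infinite, so the spread was taken from the trend. The pseudocount of 89 was the lower quartile (25th percentile) of all nonzero scores. Nothing in the labels says that the repeats were separate cultures: p-values cover only the spread among these libraries, possibly technical. Both mutants were read against the same wild-type libraries.

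Copy numbers are occurrences of 24-base words in TAIR10.1 (Python 3.11.15); a family shares at least 50% of words. Centromere positions were set by hand, at 1 round position per chromosome. Genes come from the same RefSeq annotation, in the order pseudogene, gene body, 1 kb upstream, remaining. Named regions, 1 per family and run, were the highest wild-type scores at the residual level (10) and under 0.2 (5). They also took in the 10 largest differences, the 10 highest nrpd1 scores and the regions no higher than nrpd1. AT4G05071, AT4G03380 and GRF7 regions were added to complete the 8. Regions at known or MIRNA loci were named without this reduction, so adjoining regions and copies of a family are among them. Members and lists were chosen with earlier results of these data known.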

Additional observations from a re-analysis of the deposited data

How the results depend on the processing

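The 3704 regions called higher in nrpe1 became 2135 with a 2-fold minimum, 2267 with 1 region per family and 108 among the 301 mostly single-copy regions, and ran from 3433 to 3775 with 1 library left out. The same count was 4044 and 3108 with a pseudocount 10 times smaller and larger, and 4058 with only nrpd1 and nrpe1 in the fit. It was 3951 with median scaling and 4211 after quantile normalization. No setting called a region higher in nrpd1, a direction with little room because every listed region was low in nrpd1. Without the replicate block, which follows the separate tables, the count was 3693 and the interval count 1247; libraries of a repeat deviated together (r above 0.1) in 9 of 15 genotype pairs, with nrpd1 and nrpe1 at 0.22. The 1255 regions with an interval under 1 became 170 and 4033 with a pseudocount 10 times smaller and larger, 408 above the lower quartile of mean score, 215 after quantile normalization and 216 among mostly single-copy regions, and ran from 1002 to 1433 with 1 library left out.

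The 165 residual regions became 107 and 287 with the 90th and 99th percentile, 290 with the higher ceiling in both repeats (chosen after seeing the data), 0 after quantile normalization and 85 among mostly single-copy regions, with 166 to 293 in single repeats. The 969 regions under 0.2 became 535 at a ceiling of 0.1, 181 after quantile normalization and 200 among mostly single-copy regions, with 983 to 1237 in single repeats. The 8 regions no higher than nrpd1 became 14 to 70 in single repeats, and the 1561 with nrpd1 above 0 became 1658 to 3654. The median kept on the arms, 14.7%, became 19.1% with median scaling, 45.0% after quantile normalization and 3.74% in mostly single-copy regions, with 12.4% to 17.0% in single repeats. The pericentromeric 116% became 152%, 155% and 56.6%, with 104% to 128%. It was above the value for the arms under each of these settings.

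Scaling raised the nrpe1 median 1.28 times in repeat 1 and 1.83 times in repeat 2, with nrpd1 left as deposited. Quantile normalization lifts the lowest nrpe1 scores by its construction, and it turned 6 named differences from negative to positive: 0.55 at chromosome 3 position 9595501, 0.47 at chromosome 3 position 18268501, 0.42 at chromosome 1 position 17335501, 0.49 at chromosome 1 position 23875001, 0.48 at chromosome 1 position 11129001 and 0.42 at chromosome 4 position 2595001. Quantile normalization left only 2 of 4213 regions uncalled, so most of these 6 also became calls of nrpe1 above nrpd1. In other settings uncalled differences near 0 changed sign too, and stayed uncalled. With median scaling the difference at chromosome 3 position 9595501 was 0.00101. With 1 library left out they ran from −0.0158 to 0.0946 at chromosome 4 position 14582001, −0.105 to 0.153 at chromosome 3 position 16770501, −0.0271 to 0.0432 at chromosome 5 position 5749001, −0.0251 to 0.0571 at chromosome 5 position 1518501, −0.0619 to 0.0463 at chromosome 3 position 9595501, −0.0173 to 0.0807 at chromosome 1 position 28105501, −0.0349 to 0.0671 at chromosome 1 position 12303001 and −0.0295 to 0.0456 at chromosome 3 position 10654001. They likewise ran from −0.158 to 0.174 at chromosome 1 position 22890501, −0.148 to 0.116 at chromosome 3 position 18268501, −0.0329 to 0.0168 at chromosome 1 position 17335501, −0.0176 to 0.00153 at chromosome 1 position 23875001, −0.0687 to 0.00661 at chromosome 1 position 11129001, −0.0186 to 0.00248 at chromosome 4 position 2595001, −0.00242 to 0.279 at chromosome 5 position 24002001 and −0.156 to 0.251 at chromosome 3 position 17469501. Of the other values at 60 named regions, 855 kept direction and call, 42 gained a call and 17 lost one. Scores of a few units limit the residual class, since depth is unknown.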
